A study of Mus musculus with 6 samples.

Results

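The circRNA probes described here gave signal in both C2C12 myoblasts and C2C12 myotubes and stood at least 4-fold lower in myotubes. They number 56 of the 14236 circRNA probes on the array, or 56 of the 7717 that the scanner software called well above background on all 6 arrays. The members were selected on these same measurements. Each probe's value was the log2 processed signal minus its array's 75th percentile over all circRNA probes, and a member's mean over 3 myotube arrays lay at least 2 log2 units below its mean over 3 myoblast arrays. The 100 brightest of the 7717 probes were left out. The contrast between the states therefore chose the members, and their lower level in myotubes is given below as a description, without a test.

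C2C12 is an established mouse line of muscle precursor cells. The 3 myoblast samples were taken from growth medium with 10% fetal bovine serum, and 3 myotube samples after near-confluent cultures were moved to 2% horse serum. No genotype or drug differed between the groups, and the sources used here give neither the time in horse serum nor the share of fused cells. The study describes 3 separate experiments per state. Total RNA was labelled with Cy3 and hybridised to a 1-colour Arraystar mouse circRNA array. In bulk RNA of this kind, fewer cells holding a circRNA and fewer copies per cell cannot be told apart.

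A circRNA is made by back-splicing, in which the end of a downstream exon is joined to the start of an upstream exon or of the same exon, so that the RNA closes into a ring. Having no free ends, circRNAs resist exonucleases and tend to be long-lived. Their level depends on transcription of the host gene, on how often back-splicing is chosen over linear splicing, on decay, and on dilution when cells divide. Myoblasts divide, whereas cells that fuse into myotubes leave the cell cycle, and sets of circRNAs are known to change as muscle cells differentiate. Probes on arrays of this make are designed across the back-splice junction, the one stretch of sequence that the linear transcript lacks. The array files identify each circRNA probe by a number alone, so its host gene, position in the genome and sequence are not reported here. Each circRNA probe had 1 spot.

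The 6 arrays came from 1 scan. Before scaling, the 75th percentile of the processed signal was 30.1 to 36.4 on the myoblast arrays and 37.6, 53.3 and 55.0 on those of myotubes 1, 2 and 3. On the log2 scale the percentile was on average 0.53 higher in myotubes, and all folds below are relative to it unless they are called unscaled. The array position written in the file headers puts the 3 myoblast arrays and myotube 1 in row 1 of the slide and myotubes 2 and 3 in row 2. Of the marker genes of myoblasts and myotubes looked up among the 50 gene probes, only Hspb7, a small heat shock protein of muscle, was present, so the array offers almost no marker check of the cell type.

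The members gave mostly bright spots in myoblasts, and in myotubes many stood among the dimmest probes that were still detected. Their mean processed signal ran from 18.1 to 2991 in myoblasts, with a median of 68.8, and from 5.93 to 876 in myotubes, with a median of 13.8. Over all 7717 detected probes the medians were 29.0 and 42.9, so that the typical member lay above the typical probe in myoblasts and below it in myotubes. A spot's brightness also depends on how well its probe hybridises, so ranks order probes by signal and not circRNAs by abundance. By rank among those probes, 49 of the 56 members lay in the upper 50% in myoblasts and 12 in myotubes. In myotubes 27 of the 56 lay in the lowest 10%. The median member passed from the 72.9th percentile to the 10.4th. The rule asked for detection in myotubes and a level at least 4-fold higher in myoblasts, which favours such a shift. Nothing is read from these ranks.

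The members were 4.04-fold to 23.5-fold lower in myotubes, with a median of 5.19-fold, which is a log2 difference of -2.38. The median log2 difference of all 7717 probes was -0.07, and 447 of them, or 5.79%, were lower by 1 log2 unit or more. A fall of 4-fold or more was seen in 59 of the 7717 probes, or 0.765%, counting 3 that were left out for their brightness. Probes that were no longer detected in myotubes are not among the 7717, so this share does not count them. On the other side 74 probes were higher by 2 log2 units or more. Among the members, 4 were lower by 16-fold or more, 11 by 8-fold to 16-fold, 17 by 5-fold to 8-fold and 24 by 4-fold to 5-fold.

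Every member had all 3 myoblast arrays above all 3 myotube arrays, both in the scaled values and in the unscaled signal. Without overlap in the same direction were 26.7% of the 7717 probes, or 2064. All 56 members were also among the probes that limma called lower in myotubes, against 15.1% of the 9348 probes tested and 16.0% of the 7717. The rule used the same contrast, so nothing is read from these counts. In all 1407 tested probes were called lower and 1778 higher. That balance moved with the processing, to 1599 lower and 1219 higher after normexp background correction and to 364 lower and 3441 higher without scaling between arrays. The distance between the lowest myoblast array and the highest myotube array was at least 1 log2 unit for 55 of the 56 members and at least 2 for 25.

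The 4 members lower by 16-fold or more made up the group with the greatest differences. The size of their folds depended on the processing: for these 4 it ran from 11.7 to 16.2 without scaling, from 9.01 to 15.4 in the deposited values and from 4.39 to 8.80 after normexp correction. ASCRP4003188 gave processed signals of 673, 696 and 697 in myoblasts and of 30.7, 50.2 and 49.8 in myotubes, in the order of replicates 1, 2 and 3 as throughout. It was 23.5-fold lower in myotubes (log2 difference -4.55). No myoblast array differed from another by more than 0.27 log2 units and no myotube array by more than 0.21, a spread far smaller than the 4.35 units that separated the groups. The probe moved from rank 225 of 7717 in myoblasts to rank 3812 in myotubes, so it remained near the middle of the detected probes and did not sink to the detection limit.

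ASCRP4001146 gave 436, 366 and 383 in myoblasts and 20.5, 28.7 and 27.4 in myotubes, and was 22.5-fold lower (log2 difference -4.49). Its myotube arrays were among the 4 tightest of the members, with a range of 0.13 log2 units. ASCRP4007716 gave 193, 175 and 167 in myoblasts and 11.9, 12.8 and 12.4 in myotubes, and was 20.8-fold lower (log2 difference -4.38). Its myotube signals were alike on all 3 arrays before scaling, but the scaled values had a range of 0.50 log2 units. The probe went from rank 879 to rank 7024. ASCRP4002821 was more variable than these, with 647, 495 and 346 in myoblasts and 25.8, 56.5 and 46.9 in myotubes. It was 16.99-fold lower (log2 difference -4.09), and its 0.76 and 0.63 log2 units of spread within the states left a distance of 3.44 between them.

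The members that were 8-fold to 16-fold lower started from less signal, from a mean of 49.6 to 216.5 in myoblasts, and ended between 7.08 and 19.8 in myotubes. ASCRP4001667, the brightest of these 11, gave 206, 236 and 208 in myoblasts and 18.2, 21.8 and 19.5 in myotubes (15.8-fold lower, log2 difference -3.98). ASCRP4008895 gave 128, 132 and 148 in myoblasts and 13.6, 18.5 and 16.3 in myotubes, a fold of 12.3. In both, every array of a state lay close to its fellows and the states were over 3 log2 units apart. ASCRP4002426, at 102, 80.4 and 85.0 against 9.62, 11.1 and 11.9, was 11.9-fold lower. ASCRP4004801, at 75.1, 124 and 84.9 against 9.75, 8.30 and 9.41, was 14.7-fold lower. In myoblasts these stood at ranks 1664 and 1599 of 7717, and in myotubes at 7259 and 7481, among the dimmest probes detected.

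Further down this group the arrays of 1 of the states spread more. ASCRP4013431 gave 49.7, 92.9 and 62.7 in myoblasts, a range of 0.77 log2 units, but only 7.03, 9.70 and 9.61 in myotubes, where the scaled values lay within 0.10 of each other. It was 11.02-fold lower (log2 difference -3.46). ASCRP4007538 had a like pattern in myoblasts, with 51.6, 107 and 48.6, and gave 6.82, 8.63 and 13.7 in myotubes. It was 10.0-fold lower, and myoblast 2 alone put its myoblast range at 0.93. ASCRP4011332, with 41.5, 61.7 and 48.9 in myoblasts and 7.91, 6.36 and 6.98 in myotubes, was 10.3-fold lower. Its scaled range was 0.44 log2 units in myoblasts and 0.82 in myotubes. ASCRP4010438, with 48.2, 77.4 and 57.9 in myoblasts and 10.2, 8.29 and 8.90 in myotubes, was 9.55-fold lower. Here the ranges were 0.55 in myoblasts and 0.80 in myotubes. In all 4 of these, myoblast 2 had the highest unscaled signal of the myoblast arrays. This myoblast array also had the highest percentile, and in all 4 it was still the highest after scaling.

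The 3 other members of the 8-fold to 16-fold group fall outside the rule for single description and were added after their values were seen. ASCRP4008015 was 9.06-fold lower, from 46.6, 49.8 and 52.5 to 7.02, 7.90 and 8.95. ASCRP4005796 was 8.59-fold lower, from 59.6, 60.2 and 72.7 to 7.87, 12.3 and 12.9. ASCRP4011862 was 8.46-fold lower, from 111, 117 and 106 to 18.5, 26.0 and 14.3, and its scatter lay on the myotube side, with a range of 0.92 log2 units against 0.13 in myoblasts.

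A few members were bright in both states, so that the lower myotube level was itself measured far above background. ASCRP4000664 was the brightest member, with 3276, 3156 and 2540 in myoblasts and 646, 1025 and 958 in myotubes. It was 5.01-fold lower (log2 difference -2.32), with ranges of 0.22 and 0.16 log2 units inside the states, and stood at rank 68 of 7717 in myoblasts and 240 in myotubes. ASCRP4005037 gave 555, 423 and 533 against 123, 141 and 121 and was 5.65-fold lower. ASCRP4002075 gave 446, 406 and 422 against 132, 158 and 134 and was 4.37-fold lower. Both stayed among the brighter probes in myotubes, at ranks 1623 and 1498. ASCRP4000020, at 326, 251 and 240 against 66.3, 70.0 and 69.6, was 5.69-fold lower. ASCRP4007277, at 286, 374 and 336 against 79.8, 134 and 153, was 4.05-fold lower and lay just inside the limit. In these 5 bright members the arrays of a state lay within 0.61 log2 units of each other. ASCRP4002885 was also among the brightest members in both states, but its myotube arrays had a range of 3.76 log2 units. It is described below with its flagged spot.

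The 3 brightest members carried 46.0% of the members' summed signal in myoblasts. All 56 together held a small part of the total circRNA signal of an array: 0.556%, 0.482% and 0.473% in myoblasts and 0.132%, 0.105% and 0.143% in myotubes. The means were 0.504% ± 0.0458 and 0.127% ± 0.0196 (SD, n = 3 each). The rule chose the members for being lower in myotubes on these arrays. The smaller share in myotubes followed from that choice, so nothing is read from it. Without ASCRP4000664 the shares were 0.400%, 0.354% and 0.357% in myoblasts and 0.101%, 0.0653% and 0.108% in myotubes. All these shares, and the 46.0%, count ASCRP4002885, whose spot on myotube 2 carried an outlier flag. Without that member, an alternative added after the data were seen, the shares were 0.492%, 0.409% and 0.409% in myoblasts and 0.0893%, 0.102% and 0.0944% in myotubes.

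The 3 probes left out for brightness met every other condition. ASCRP4002285 gave 26224, 29408 and 30840 in myoblasts and 3480, 4392 and 4234 in myotubes, and was 10.4-fold lower. ASCRP4000662 gave 12504, 11435 and 9064 against 2133, 3881 and 3550 and was 5.11-fold lower. ASCRP4000209 gave 9917, 8763 and 7256 against 1710, 2924 and 2601 and was 5.28-fold lower. These probes were picked by the same limit on the same arrays, so their differences are no separate result. Their mean signal was far higher than that of any member in either state. ASCRP4000662 and the member ASCRP4000664 are 2 identifiers apart and had log2 differences of -2.35 and -2.32. In both, as in ASCRP4000209, myoblast 3 and myotube 1 were the lowest arrays of their states before scaling. These arrays also had the lowest 75th percentile of their states, at 30.1 and 37.6. After scaling they were still the lowest of their states for all 3 probes. For ASCRP4000209, however, the scaled log2 values of myoblasts 2 and 3 were nearly equal, at 7.9133 and 7.9128.

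For 1 member the rule was met only through a spot with an outlier flag. ASCRP4002885 gave 1343, 1804 and 1392 in myoblasts and 901, 94.6 and 1325 in myotubes. Its scaled value minus the myoblast mean was -0.92 log2 units on myotube 1 and -0.91 on myotube 3, but -4.67 on myotube 2. The spot on myotube 2 carried the scanner software's outlier flag, the only flagged spot among the 56 members. The rule counted that spot and gave a log2 difference of -2.17. Without it the difference was -0.91, a fold of 1.88, so by its other arrays this circRNA was lower in myotubes by under 2-fold. The limma fit left flagged spots out and called the probe on its other 5 arrays, and with the flagged spot kept it was the 1 member not called. The next identifier down, ASCRP4002884, is also a member and did not share this pattern, with 30.7, 23.7 and 30.1 in myoblasts, 6.72, 7.39 and 8.10 in myotubes and a fold of 5.48.

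ASCRP4004886 also rested largely on 1 array, though none of its spots was flagged. It was even in myoblasts, at 65.7, 69.0 and 68.5, and scattered in myotubes, at 22.0, 6.43 and 47.1. The scaled values minus the myoblast mean were -1.81, -4.08 and -1.26 log2 units on myotubes 1, 2 and 3, and without myotube 2 the log2 difference was -1.53 in place of -2.38. Myotube 2 was thus the low array for both ASCRP4002885 and ASCRP4004886. Their myotube ranges of 3.76 and 2.83 log2 units exceeded those of all other members, of which only 3 were over 1.

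Those 3 were dim in myotubes. ASCRP4007524 gave 41.2, 36.2 and 35.8 in myoblasts and 11.9, 11.5 and 8.52 in myotubes (5.18-fold lower). ASCRP4000045 gave 40.1, 36.8 and 34.1 against 6.71, 16.8 and 19.8 (4.08-fold lower), and here myotube 1 was the low array. ASCRP4008009 was the most variable member in myoblasts as well, with 18.0, 25.6 and 32.1 against 9.52, 6.66 and 9.36. It was 4.23-fold lower, with ranges of 0.98 and 1.02 log2 units inside the states and 1.098 between them. ASCRP4012631 was also uneven in myoblasts, at 52.0, 39.2 and 56.8, and gave 9.002, 10.5 and 14.7 in myotubes (6.32-fold lower).

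Other members varied little in at least 1 state. In myoblasts the least range was that of ASCRP4003390, 0.06 log2 units, with 38.9, 42.5 and 33.9 before scaling and 11.7, 10.9 and 12.8 in myotubes (4.72-fold lower). ASCRP4011507 gave 38.5, 42.3 and 37.2 against 12.1, 13.0 and 12.7 (4.51-fold lower). ASCRP4009233 gave 27.2, 29.9 and 26.4 against 10.5, 9.22 and 9.17 (4.19-fold lower). In these 3 the myoblast arrays differed before scaling much as their percentiles did, while the myotube ranges were 0.61, 0.48 and 0.74. ASCRP4002774, at 43.2, 44.6 and 40.1 against 10.6, 12.8 and 12.1, was 5.22-fold lower. In myotubes the least range was that of ASCRP4008463, 0.08 log2 units, with 42.1, 38.0 and 43.4 against 9.12, 13.3 and 12.9 (5.12-fold lower). ASCRP4009323 was tight in both states, with ranges of 0.20 and 0.16, at 182, 191 and 181 against 44.8, 71.1 and 71.4 (4.37-fold lower).

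Over all members the SD between arrays had a median of 0.21 log2 units in myoblasts and 0.25 in myotubes, against 0.20 in both states for all 7717 probes. The scanner software's own error estimate for a spot had a median of 10.1% of the signal for the members in myoblasts and 12.1% in myotubes, and reached 19.5% for a dim member. Over the 7717 probes these medians were 10.6% and 10.3%. For the 3249 detected probes with a mean myotube level between the lower and upper quartile of the members, the median SD in myotubes was 0.21, also below the 0.25 of the members.

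The remaining 26 members, described here together, were 4.21-fold to 9.06-fold lower, with a median of 4.93-fold. They include ASCRP4002884 and the 3 members added to the 8-fold to 16-fold group above. Their mean signal lay between 18.1 and 269 in myoblasts and between 5.93 and 68.2 in myotubes. The highest signal of any of them on a single myotube array was 75.8, and their median distance between the lowest myoblast and the highest myotube array was 1.86 log2 units. The dimmest member was ASCRP4014195, with 18.8, 22.4 and 13.0 in myoblasts and 5.77, 5.58 and 6.43 in myotubes (4.32-fold lower), added after its values were seen. On the same arrays the lowest signal of any circRNA probe called well above background was 4.30 to 5.01.

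At the limit of the rule, the 3 members just inside had log2 differences of -2.01 (ASCRP4008386), -2.02 (ASCRP4007277) and -2.03 (ASCRP4000045). The 3 probes just outside had -1.9997 (ASCRP4004756), -1.99 (ASCRP4003070) and -1.98 (ASCRP4006158). ASCRP4008386 gave 118, 90.0 and 75.6 in myoblasts and 30.5, 34.8 and 34.9 in myotubes. ASCRP4004756, just outside, gave 266, 346 and 283 against 78.6, 128 and 122. These 6 log2 differences lay closer together than the arrays of 1 state did for any of these probes.

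Dimness in myotubes bounds what can be said of the size of many differences. The mean myotube signal was under 10 for 13 members and under 20 for 34. Among the 15 negative probes of the array the mean myotube signal had a median of 1.1004 and a highest value of 7.75, and 4 members lay under that highest value. The other 14 negative probes reached at most 4.13, and every member, the lowest at 5.93, lay above them. For the 13 dimmest members the raw spot signal, with no background removed, was 20 to 25 in myotubes, where the local background was 10.5 to 12.7. For these members background and specific signal were thus of similar size.

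The arrays of myotubes did not contribute alike. Relative to the myoblast mean, 52 of the 56 members were lower by 2 log2 units or more on myotube 2 alone, 50 on myotube 3 alone and 39 on myotube 1 alone, with medians of -2.50, -2.43 and -2.25. On each of the 3 arrays at once 33 members reached 2 log2 units, and 55 reached 1, the exception being ASCRP4002885. After scaling, myotube 1 was the highest of the 3 myotube arrays for 34 members, or 60.7%, and for 45.2% of the 7717 probes. It exceeded the mean of myotubes 2 and 3 by a median of 0.29 log2 units for the members and 0.06 for the 7717 probes. No other myotube array shared a slide row with the myoblasts, so slide row and sample cannot be told apart here. Within that row, from myotube 1 against the 3 myoblast arrays, the median log2 difference of the members was -2.25.

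In myoblasts, myoblast 2 was the lowest scaled array for 31 members, or 55.4%, against 38.5% of the 7717 probes, and myoblast 3 was the highest for 25, or 44.6%, against 37.3%. No member had a myoblast range over 0.98 log2 units, whereas 5 had a myotube range over 1.

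The members stayed lower in myotubes under each processing tried, but the size of the difference changed. Each processing used the arrays that chose the members by a limit of 2 log2 units, so nothing is read from the unchanged direction. Without scaling between arrays the members were 2.79-fold to 16.2-fold lower, with a median of 3.59-fold, and 19 of the 56 kept 2 log2 units. The deposited log2 values, which hold all 56 probes, put them 2.00-fold to 15.4-fold lower, with a median of 3.28-fold and with 17 at 2 log2 units or more. In those values also the states did not overlap for any member. They come from the same arrays that chose the members, and the share of all probes without overlap was not computed in them. Nothing is read from this count. Normexp background correction with an offset of 50 gave 1.45-fold to 8.80-fold, with a median of 2.06-fold, and left 6 members at 2 log2 units or more. These 6 were ASCRP4003188, ASCRP4001146, ASCRP4007716, ASCRP4002821, ASCRP4001667 and ASCRP4000664.

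How far a fold shrank went with brightness. For the 8 members with a mean myoblast signal over 300 the median fold was 5.33 as scaled, 4.21 in the deposited values and 3.60 after normexp correction. For the 12 between 100 and 300 these medians were 5.40, 3.94 and 2.51. For the 17 between 50 and 100 they were 5.87, 3.23 and 2.02, and for the 19 up to 50 they were 4.90, 2.43 and 1.61. Under the deposited values none of those 19 dimmest members kept 2 log2 units, and the dim ASCRP4008009 had the least difference, with a log2 value of -0.9997. The offset of normexp adds to every signal and so shrinks folds of dim probes by construction. The deposited values followed the raw spot signal in order, with Spearman correlations of 0.996 to 0.999 across the 11128 probes of each array, and the sources used here do not give their scaling.

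The members lay all over the array, from row 1 to row 192 of its 192 rows and from column 1 to column 81 of its 82. The upper left, upper right and lower right parts held 16 each and the lower left part 8. One pair of members lay within 2 rows and 2 columns of each other. The spots around a member, within 2 rows and 2 columns, had a median log2 difference of -0.09 (lowest -0.92, highest 0.38 over the 56 neighbourhoods), close to the -0.07 of all 7717 probes.

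Identifiers of members were spread over the whole series from ASCRP4000020 to ASCRP4014195. The sources used here do not say what the order of the identifiers stands for. ASCRP4002884 and ASCRP4002885 were the only members with neighbouring numbers. Of 60 detected probes that were no members and whose number was next to a member's, 4 were lower by 1 log2 unit or more, or 6.67%, and the corresponding share was 5.10% for all 7661 detected probes that were no members. Those 4 were ASCRP4009411 (log2 difference -1.48), ASCRP4009604 (-1.47), ASCRP4009253 (-1.39) and ASCRP4002860 (-1.05), each named after its value was seen. Their neighbours among the members were ASCRP4009412 (-2.18), ASCRP4009605 (-2.24), ASCRP4009254 (-2.15) and ASCRP4002859 (-2.51). Over 4264 pairs of neighbouring identifiers, which share the same 6 arrays, the log2 differences correlated at 0.0148, given as a description.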

How the data were processed

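Each of the 6 arrays came as a scanner table, which per the file headers Feature Extraction 11.0.1.1 wrote. The deposited processed signal is an intensity after background subtraction and detrending within the array, not scaled between arrays. The deposited value table holds log2 values for 11128 circRNA probes, and the sources used here do not say how the authors made them. The sample titles gave group and replicate number. Members and lists were chosen with earlier results of these data known.

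Values were log2 processed signal minus the array's 75th percentile over all circRNA probes. For a group mean of processed signal, arrays were averaged on the linear scale. Membership used every spot, as the rule reads. On each of the 6 arrays 43 to 91 spots carried an outlier flag, counted over all spots and not circRNA spots alone. Flagged circRNA spots were left out of the fit, and no circRNA spot was saturated. For the background shares, 9348 probes, detected on every array of one state or of both, were fitted with limma 3.58.1 (lmFit, then eBayes) under R 4.3.3, with no replicate block and a Benjamini-Hochberg adjusted threshold of 0.05, 2-sided. The fit was tested on simulated data.

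Members described singly were the 12 with the greatest difference, the 6 brightest in each state, the 4 with the widest and the 4 with the narrowest range in each state, the 3 on either side of the limit, and those left out for brightness. Normexp used the median spot signal in place of the planned mean signal. Other scalings, the deposited values, flags kept, slide row as a block, a replicate block and each array left out were the alternatives. The number of arrays limits the precision.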

Additional observations from a re-analysis of the deposited data

How the results depend on the processing

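Re-applied under other settings, the rule chose 6 probes after normexp correction, 17 with the deposited values and, in a setting added after the data were seen, 19 without scaling between arrays, all of them among the 56. The median log2 difference of the 56 was then -1.05, -1.71 and -1.84 in place of -2.38. With each array left out in turn the rule chose 56 to 71 probes, 49 to 55 of them among the 56. The median log2 difference of the 56 then ran from -2.50 to -2.35. Limma called 55 or 56 of the members, against 849 to 1449 of all tested probes. On all 6 arrays it called 15.1% of the 9348 tested probes lower. The rule used the same contrast, so nothing is read from the members called in any setting. Within the first slide row it chose 57 probes, 39 of them members, and under median scaling 74, with all 56 among them. Probes called lower numbered 849 to 1449 with an array left out, the fewest without myotube 3, 695 with slide row as a block, 478 within the first row and 364 without scaling, against 1407, and the cause was not tested. Median scaling gave 1740 lower and 1512 higher, the most called lower in any setting run. The deviations of arrays with the same replicate number correlated at -0.04, 0.03 and -0.11, and those of arrays with different numbers at -0.15 to 0.20. With 3 arrays per state, this cannot decide whether the replicates were paired. A replicate block gave 1164 probes called lower, with all 56 members among them, from which likewise nothing is read. The members not called in some setting were ASCRP4002885, ASCRP4004886 and ASCRP4008009. For the probes described singly, 119 of 540 log2 differences moved by more than the SD between arrays and none changed sign. The same arrays chose these probes, so nothing is read from the unchanged signs.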
